A study of Mus musculus with 8 samples.

Results

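The regions described here are 2776 stretches of open chromatin that were called in control cells at both times and in cells with the E protein fusion at neither time. They were 4.56% of the 60835 regions that the 4 peak lists of the study held together. To find them, overlapping peaks of a list were merged, regions of different lists that overlapped by 1 bp or more were linked, and the linked regions present in both GFP lists and absent from both E47 lists were kept. They are called GFP-only regions below. They were chosen by the calls in all 4 lists, so their presence with GFP, their absence with E47 and their strength are given as a description and support nothing. The converse class, called in both E47 lists and in neither GFP list, held 2088 regions, or 3.43% of the 60835.

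Chromatin was profiled by ATAC-seq, in which the Tn5 transposase cuts DNA that is not packed in nucleosomes, so that dense cuts mark active promoters and enhancers. The cells were thymic ILC2s, the innate lymphoid cells of type 2 immunity, of plck-Id1 mice with the strain C57BL/6. In these mice the proximal Lck promoter drives Id1, an inhibitor of E proteins, in cells of the T lineage, and this transgene was shared by every group. The cells were stimulated with cytokines that included IL-7, IL-25 and IL-33, infected with a MIGR1 retrovirus that carried GFP by itself or E47-ER beside GFP, sorted for GFP and grown on. E47-ER joins E47, a product of the E protein gene Tcf3, to a part of the estrogen receptor that 4-hydroxytamoxifen switches on. Both kinds of cells received 4-hydroxytamoxifen for 4 or 16 hours, which gave 4 groups of 2 samples, called GFP 4 h, GFP 16 h, E47 4 h and E47 16 h. The age of the mice is not given in the sources used here.

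The authors deposited 1 peak list per group, so the spread between the 2 samples of a group could not be measured and no test between groups was possible. Intervals in brackets are exact (Clopper-Pearson) 95% binomial intervals, which cover counting error only. Absence from a list means that no peak was called, and such chromatin may still have been accessible. Whether replicates are separate cultures or animals is not stated in the labels. In the description field, replicate 1 of each group has the empty vector and replicate 2 has E47-ER, which goes against the titles and the transduction labels. Groups follow the titles here, and if the descriptions were right, each list would pool both vectors and the names GFP-only and E47-only would not hold. The lists held 40649 to 52846 merged regions over 20.6 to 24.9 Mb, and the files used here do not give reads per library. Of the ILC2 markers chosen, 12 of 12 had a region in all 4 lists, among them Gata3. So did 3 of 7 T cell, 2 of 5 B cell and 3 of 5 myeloid markers. Among NK and ILC3 markers, 3 of 4 each did. Regions were given to the nearest gene within 100 kb, so these counts call no cell type. Ptgdr2, another ILC2 gene, was not among the 12 and had 0 regions. Of the 3 T cell markers, Bcl11b is also a factor of ILC2s. Marker promoters with a sequence lay in a region of all 4 lists for 7 of 10 ILC2 and 1 of 4 NK markers. They did so for 0 of 6 T cell, 0 of 3 B cell, 0 of 2 myeloid and 0 of 3 ILC3 markers.

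As background, E proteins bind E-box sequences and drive the T and B lymphocyte programs, while Id proteins pair with them and keep them off DNA. Loss of E protein activity, as in Id1-transgenic mice, lets ILC2s arise in large numbers in the thymus. ILC2s depend on GATA3, RORα, TCF-1 and BCL11B, respond to the alarmins IL-33 and IL-25, and secrete type 2 cytokines and amphiregulin. AP-1 factors, which are dimers of Jun, Fos, BATF and related proteins, bind many enhancers that open when lymphocytes are activated.

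GFP-only regions rarely lay on a promoter. Of the 2677 on chromosomes with promoter sequences, 77 touched a promoter window, defined as the 250 bases before and 50 bases after a RefSeq transcription start on GRCm38.p6, the assembly known as mm10. This was 2.88% (2.28 to 3.58), against 3.81% (3.02 to 4.74) of E47-only regions, 4.71% (4.07 to 5.43) of regions missing only from the E47 16 h list, and 31.7% (31.2 to 32.3) of regions in all 4 lists. The 77 regions touched 85 windows, 58 of protein-coding genes and 27 of long non-coding RNA (lncRNA) genes, and 17 windows lay wholly inside the region.

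These windows are the stretches of the GFP-only set for which sequence was at hand, and 5 of lncRNA genes are shown first because each holds the AP-1 motif, whose share is compared below. Each runs from 250 bases before the start to 50 after it, 5′ to 3′ on the strand of the gene. Capitals mark every match, on either strand, to the motifs searched. These were AP-1 (TGACTCA, whose reverse complement is TGAGTCA), the GATA factor motif AGATAA, the ETS motif GGAAGT, the RUNX motif TGTGGT, the STAT motif TTCNNNGAA, the NF-kB motif (5′ GGGA, any 4 bases, CC) and the E-boxes CAGCTG and CACCTG. The sequences were chosen after their values had been seen.
Gm33323: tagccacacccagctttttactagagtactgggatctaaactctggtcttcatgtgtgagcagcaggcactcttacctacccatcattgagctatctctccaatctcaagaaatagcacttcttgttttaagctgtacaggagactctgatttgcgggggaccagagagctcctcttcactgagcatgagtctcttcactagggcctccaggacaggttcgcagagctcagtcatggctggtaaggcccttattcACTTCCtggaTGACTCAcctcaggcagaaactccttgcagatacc
Gm30986: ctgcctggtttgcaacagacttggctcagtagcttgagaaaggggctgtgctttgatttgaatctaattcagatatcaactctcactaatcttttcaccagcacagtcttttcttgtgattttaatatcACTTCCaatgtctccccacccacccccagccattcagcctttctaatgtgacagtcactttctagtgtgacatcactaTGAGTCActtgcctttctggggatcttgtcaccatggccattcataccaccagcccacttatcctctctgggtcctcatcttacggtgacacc
Gm28857: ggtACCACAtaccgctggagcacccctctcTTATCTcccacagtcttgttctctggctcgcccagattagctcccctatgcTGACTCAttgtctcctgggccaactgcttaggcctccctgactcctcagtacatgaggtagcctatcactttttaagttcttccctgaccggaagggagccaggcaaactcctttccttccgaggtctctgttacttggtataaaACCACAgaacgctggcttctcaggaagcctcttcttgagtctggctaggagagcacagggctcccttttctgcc
Gm46252: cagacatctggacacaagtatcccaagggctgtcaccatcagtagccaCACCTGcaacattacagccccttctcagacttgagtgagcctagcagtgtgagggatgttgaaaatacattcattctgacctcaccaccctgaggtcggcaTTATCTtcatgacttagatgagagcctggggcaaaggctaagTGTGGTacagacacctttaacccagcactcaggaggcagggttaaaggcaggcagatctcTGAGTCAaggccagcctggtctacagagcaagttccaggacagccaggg
Gm31771: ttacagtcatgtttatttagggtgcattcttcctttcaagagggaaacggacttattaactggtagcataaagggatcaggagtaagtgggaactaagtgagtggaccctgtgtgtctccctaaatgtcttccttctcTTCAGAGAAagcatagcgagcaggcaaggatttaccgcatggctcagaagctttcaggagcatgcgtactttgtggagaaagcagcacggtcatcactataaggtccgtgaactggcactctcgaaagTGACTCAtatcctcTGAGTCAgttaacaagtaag
Gm33323 is at chr7:129764377-129764676 on the plus strand and its capitals are an ETS match and, at bases 16 to 22 after the start, the AP-1 match. Gm30986 is at chr2:131744086-131744385 on the plus strand, with ETS and then AP-1, the latter from base -43 to -37 before the start. Gm28857, at chr1:130741242-130741541 on the minus strand, reads RUNX, GATA, AP-1 and RUNX. Gm46252, at chr11:76153995-76154294 on the plus strand, reads an E-box of the CACCTG form, then GATA, RUNX and AP-1. Gm31771, at chr1:97910853-97911152 on the plus strand, holds a STAT match and a pair of AP-1 matches 7 bases apart.

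Protein-coding starts are shown for contrast, as the 250 bases before the start. C3ar1 encodes the receptor for complement fragment C3a, Pou2af1 a coactivator of octamer-binding factors that is best known from B cells, and Reln the secreted protein reelin.
C3ar1: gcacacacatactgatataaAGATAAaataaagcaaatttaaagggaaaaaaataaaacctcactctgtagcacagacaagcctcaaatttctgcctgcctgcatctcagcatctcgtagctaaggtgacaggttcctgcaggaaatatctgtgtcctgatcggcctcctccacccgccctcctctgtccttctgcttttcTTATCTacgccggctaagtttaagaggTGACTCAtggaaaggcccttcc
Pou2af1: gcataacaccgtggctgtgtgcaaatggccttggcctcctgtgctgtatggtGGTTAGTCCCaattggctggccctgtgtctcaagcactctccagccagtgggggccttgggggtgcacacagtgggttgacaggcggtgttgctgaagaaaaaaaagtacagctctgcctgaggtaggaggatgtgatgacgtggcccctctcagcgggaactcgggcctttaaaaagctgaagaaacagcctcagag
Reln: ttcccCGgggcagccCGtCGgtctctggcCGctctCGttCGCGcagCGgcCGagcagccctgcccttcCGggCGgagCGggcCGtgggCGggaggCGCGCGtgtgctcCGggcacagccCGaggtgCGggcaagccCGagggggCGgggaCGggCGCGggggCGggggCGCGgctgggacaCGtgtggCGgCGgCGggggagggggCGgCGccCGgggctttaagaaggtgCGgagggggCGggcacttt
C3ar1 is at chr6:122856158-122856407 on the minus strand and its capitals are 2 GATA matches and, at bases -22 to -16, AP-1. Pou2af1, at chr9:51213440-51213689 on the plus strand, holds 1 NF-kB match. In Reln, at chr5:22344706-22344955 on the minus strand, the capitals mark its 37 CpG pairs in place of motifs, and its GC content is 80.0%. Reln is a CpG-rich promoter among windows that were mostly not: 21.2% (13.1 to 31.4) of the 85 held 20 or more CpG pairs. The share was 26.5% of all promoters and 18.2% (10.8 to 27.8) of windows touched by E47-only regions, both inside the interval of the 85. It was 61.1% (60.3 to 62.0) of 11942 windows touched by regions of all 4 lists. The median GC content was 55% in the 85 windows, 62.3% in those touched by regions of all lists, and 52.7% in all 32851 promoters.

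The AP-1 motif was found in 14 of the 85 windows, or 16.5% (9.31 to 26.1). It was found in 5.20% of all promoters, in 4.55% (1.25 to 11.2) of windows touched by E47-only regions, in 11.3% (7.39 to 16.4) of those touched by regions missing only from E47 at 16 h, and in 3.32% of those touched by regions of all lists. The interval of the GFP-only windows thus lay above the share of all promoters and overlapped those of the E47-only windows and of the windows lost from the E47 16 h list. The 14 windows belonged to 12 separate regions, because Gm33323 and Gm33398 start head to head in 1 region, and 2 starts of 5033421B08Rik lie 1 base apart. With regions linked by their strongest summits within 150 bp, the shares were 8.94% of 246 windows for GFP-only and 4.96% of 262 for E47-only regions.

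Most of the AP-1 matches stood at lncRNA starts. There, 10 of 27 windows held the motif, or 37.0% (19.4 to 57.6), against 6.20% of all 11588 promoters of genes that are not protein-coding. Some of these windows overlap, and by region the motif was found for 8 of the 25 that touched such a promoter. Of the 58 protein-coding windows, 4 held it, or 6.90% (1.91 to 16.7), against 4.66% of all protein-coding promoters. These 4 belonged to C3ar1, 1810058I24Rik, Plin5, which encodes a coat protein of lipid droplets, and Rgs17, which encodes an inhibitor of G protein signalling. Windows of genes that are not protein-coding held the motif in 28.3% (16.0 to 43.5) for regions missing only from E47 at 16 h, in 1 of 21 for E47-only regions, and in 5.56% for regions of all lists. The median GC content of the 27 lncRNA windows was 49.7%, against 48.3% over all promoters that are not protein-coding.

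Of the 77 regions on promoters, 12 held the AP-1 motif in the bases that region and window share, or 15.6% (8.32 to 25.6), and 10 held the GATA motif, or 13% (6.41 to 22.6). The same counts among the 77 E47-only regions on promoters were 3 and 3, or 3.90% (0.81 to 11) for each motif. For the E-box CACCTG the order was turned round, with 6 of 77 GFP-only regions, or 7.79% (2.91 to 16.2), and 13 of 77 E47-only regions, or 16.9% (9.31 to 27.1). For the E-box CAGCTG the counts were 12 and 12. The intervals of GFP-only and E47-only regions overlapped for every motif named here, so the intervals do not part these classes. CACCTG stood in 20.7% of the regions on promoters missing only from E47 at 16 h and in 18.1% of those in all lists. The E47-only share of 16.9% was thus not above either of these shares. In whole windows, CACCTG stood in 16.5% for GFP-only regions, 25% for E47-only regions and 20.2% of all promoters. The intervals of the GFP-only and E47-only windows both took in the share of all promoters. The GATA motif stood in 17.6% (10.2 to 27.4) of the 85 windows, 11.2% of all promoters and 7.95% (3.26 to 15.7) of the windows of E47-only regions. The ETS, RUNX, STAT and NF-kB motifs stood in 22.4%, 18.8%, 9.41% and 24.7% of the 85 windows, against 23.8%, 16.8%, 8.30% and 20.7% of all promoters. In all, 8 motifs were searched, each on both strands, and overlapping windows share sequence, so the counts are not independent. CAGCTG reads the same on both strands, CACCTG was counted with its reverse complement CAGGTG, and matches that overlap another motif were counted for both. A match is a description of the letters in a window, not a site.

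**Figure D1:**
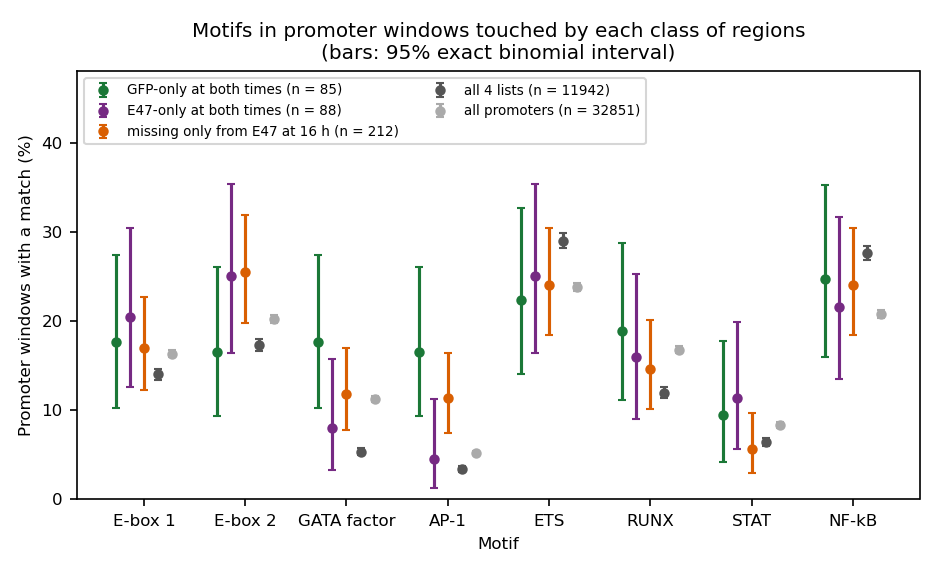
Share of promoter windows (%) that hold each motif, for windows touched by GFP-only regions (green), E47-only regions (purple), regions missing only from E47 at 16 h (orange) and regions of all 4 lists (dark grey), and for all promoters (light grey). E-box 1 is CAGCTG and E-box 2 is CACCTG. Points are shares and bars exact 95% binomial intervals. For AP-1 the green point is at 16.5% and the purple at 4.55%, and their bars overlap.

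Among single GFP-only regions on promoters, that of Pou2af1 was the only region linked to its gene in any list. It spans chr9:51213358-51214214, covers the whole window, and had a fold enrichment over local background of 7.12 in the GFP 4 h list and 9.44 in the GFP 16 h list. The nearest region of an E47 list was 51345 bp away. At Reln the region, at chr5:22344148-22345615, was the widest of the class at 1468 bp, had folds of 8.90 in the GFP 4 h list and 7.45 in the GFP 16 h list, and had no E47 region within 119328 bp. At C3ar1 the folds were 7.31 and 9.99, and the nearest E47 region was 16189 bp off. At the shared Gm33323 and Gm33398 starts they were 9.18 and 9.98, with no E47 region within 110331 bp. No E47 region thus lay within 16189 bp of any of these 4 regions, and all 4 lay below the median strength of both lists. The 4 were chosen after their values had been seen and do not stand for the 77. Among all GFP-only regions on promoters, the distance to the nearest E47 region ran from 53 bp at Ulbp1 to 884021 bp at Epha3. It was 56 bp at Dctd and 58 bp at Fgf2.

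GFP-only regions were weak as a class, as were E47-only regions in their own lists. Strength ranks a region by its highest −log10 p among the regions of its own list, as a percentile, so it compares regions within a list and not levels between lists. In the GFP 4 h list the strength ran from 0.40 to 69.7 with a median of 17.0, and in the GFP 16 h list from 0.35 to 78.5 with a median of 30.4. The median fold was 6.37 at 4 h and 7.61 at 16 h, and the median width was 335 bp. Regions in all 4 lists had median strengths of 64.5 and 71.0, median folds of 11 and 12.3, and a median width of 678 bp. E47-only regions had median strengths of 25.7 in the E47 4 h list and 18.3 in the E47 16 h list, median folds of 6.61 and 6.30, and a median width of 356 bp. Of the GFP-only regions, 51 lay above the median of both GFP lists, or 1.84% (1.37 to 2.41). This share was 3.33% with lists of equal length and 8.44% with regions linked by summits within 150 bp, and the share of E47-only regions above the medians of both E47 lists was 5.51%, 7.67% and 12.8% in the same order. Of the GFP-only regions, 977 lay below percentile 25 in both, or 35.2% (33.4 to 37.0). The ranks of the regions at 4 h and 16 h followed each other with a Spearman rho of 0.59 over the 2776, against 0.96 over the 29667 regions of all lists. Both rhos are descriptions across regions of the same 2 lists.

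The weaker a control region was, the more often it was missing from both E47 lists. Of the regions called in both GFP lists with a mean strength up to percentile 10, 44.2% (40.6 to 47.9) were GFP-only. The share was 33.3% from percentile 10 to 20, 21.7% from 20 to 30, 12.4% from 30 to 40 and 4.56% from 40 to 60. Above percentile 60 it was 0.148% (0.098 to 0.216), or 27 of 18185 regions. The score that the authors' files give for agreement between replicates, capped at 1000, was at the cap for 14.4% of GFP-only regions at 4 h and for 40.2% at 16 h, against 81.9% and 90.7% of regions in all lists, and for 32.8% and 21.7% of E47-only regions in the E47 lists. Cutting the lists to equal length left 1712 of 2523 regions of the class in common with the 2776.

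**Figure D2:**
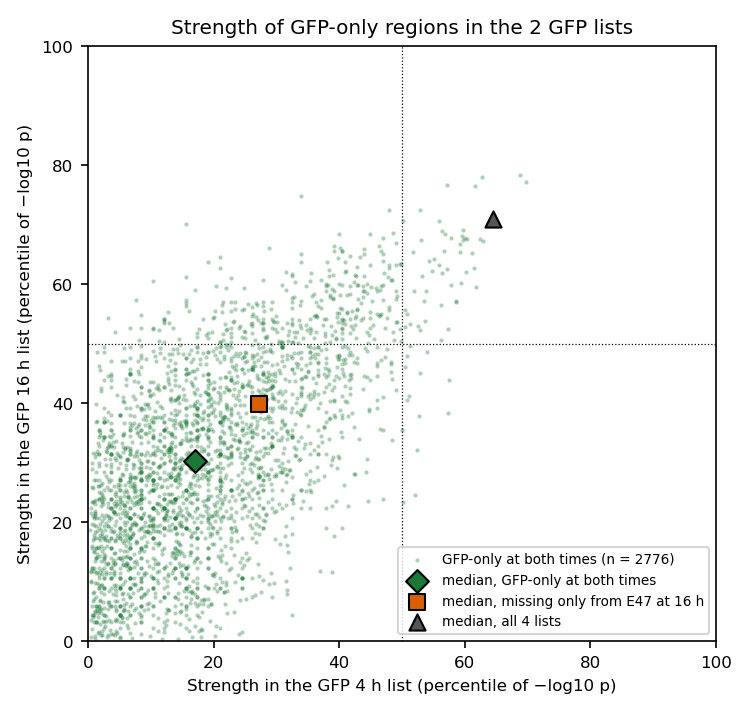
Strength of the 2776 GFP-only regions in the GFP 4 h list (x axis) and the GFP 16 h list (y axis), each as the percentile of −log10 p in its list, with 1 point per region. Large symbols are class medians and dotted lines the list medians. The green diamond lies at 17.0 and 30.4, the orange square of regions missing only from E47 at 16 h at 27.3 and 39.9, and the grey triangle of regions in all lists at 64.5 and 71.0.

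The strongest GFP-only regions lay near the median strength of the regions in all lists. The 12 with the highest mean strength had the top score of 1000 at both times. The first, at chr1:144436567-144437333, lay 82925 bp downstream of Rgs21, a gene of the family that turns off G protein signalling, and its fold was 16.7 at 4 h and 19.7 at 16 h, with strengths of 68.7 and 78.5. No E47 region lay within 29604 bp of it.

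Several of the 12 lay inside genes. Those in Slc35d1, which encodes a nucleotide sugar transporter, at chr4:103199856-103200137, and in Ttc27 at chr17:74841740-74842081 had folds of 13.3 and 13 at 4 h and 19.3 and 19.2 at 16 h. Those in Dnah3, which encodes an axonemal dynein chain, in Ap3s2, which encodes a sorting adaptor subunit, and in Plxdc2 had folds of 15.2, 13.4 and 14.1 at 4 h and 17.6, 14.9 and 17.4 at 16 h. The region in Polr3b, which encodes a subunit of RNA polymerase III, was an exception in its surroundings, with an E47 region 571 bp away and folds of 9.36 and 12.6.

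Of the 12, 2 lay near genes best known from blood cells. The region 8879 bp upstream of Fcgr1, which encodes the high-affinity IgG receptor of myeloid cells, at chr3:96302650-96303042, had folds of 13 and 15, and the nearest E47 region was 24029 bp away. The region 6074 bp from Fli1, which encodes an ETS factor of blood cells, at chr9:32415971-32416324, had folds of 12.3 and 14.8, with an E47 region 10386 bp away. Regions of the 12 near Garre1 and Cct8 had folds of 14.2 and 12.1 at 4 h and 17.8 and 14 at 16 h. All 12 had a higher fold in the GFP 16 h list than in the GFP 4 h list. So did 81.0% (79.5 to 82.4) of GFP-only regions and 71.9% (71.3 to 72.4) of regions in all lists. The 2 lists differ in length and their depth is unknown, so this order does not measure a change over time.

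GFP-only regions lay near gene ends less often than the other classes compared. A protein-coding gene started or ended within 1 kb of the summit for 172 of 2776, or 6.20% (5.33 to 7.16). The share was 10.5% (9.21 to 11.9) for E47-only regions, 10.7% (9.80 to 11.7) for regions missing only from E47 at 16 h and 36.8% (36.3 to 37.4) for regions in all lists. With regions linked by summits within 150 bp the share rose to 11.97% for GFP-only regions, and it was 16.6%, 14.7% and 36.3% for the other classes in the same order. Within 1 kb of a transcription start, the shares were 4.45% (3.70 to 5.30), 7.92%, 7.97% and 33.9% in the same order. In gene bodies, over 1 kb from either end, lay 53.8% (51.9 to 55.7) of GFP-only regions, 53.0% of E47-only regions, 53.5% of those missing only from E47 at 16 h and 37.6% of those in all lists. The genes that held a region had a median length of 91.0 kb, 81.6 kb, 82.4 kb and 50.9 kb in the same order. Within a gene whose strand was known, the median region lay 46.8%, 41.4%, 44.4% and 19.2% of the way from start to end. In gene-body share, gene length and place within the gene, the classes that E47 lists lacked or held alone were thus close to one another. In these 3 measures they were apart from the regions of all lists. In closeness to gene ends and starts, GFP-only regions had lower shares than each of the other classes. No gene lay within 100 kb for 217 GFP-only regions, or 7.82%, against 5.46%, 5.54% and 3.43% of the other classes.

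Among regions of all lists, those above percentile 60 of strength lay near gene ends most often, so the comparison was repeated at like strength in the GFP lists. From percentile 10 to 60 the share of regions in all lists changed little, while that of GFP-only regions fell as strength rose. The fall was not particular to GFP-only regions, as regions missing only from E47 at 16 h or at 4 h also showed it. For those missing only from E47 at 4 h the shares were 16.4%, 16.0%, 8.82% and 8.48% in the 4 bins from 10 to 60. From percentile 10 to 20, 8.54% (6.69 to 10.7) of GFP-only regions were within 1 kb of a gene end, against 16.0% (13.3 to 19) of those missing only from E47 at 16 h and 16.2% (13.6 to 19) of those in all lists. From 20 to 30 the shares were 5.70%, 13.4% and 16.2%, from 30 to 40 they were 5.39%, 8.70% and 16.4%, and from 40 to 60 they were 2.58%, 6.88% and 17.9%. From 10 to 60 the interval of the GFP-only regions lay below that of the regions in all lists in every bin. From 30 to 40 it overlapped that of the regions missing only from E47 at 16 h. Up to percentile 10 the shares were 7.03% (4.51 to 10.4), 22.4% (16.7 to 29) and 11.1% (6.82 to 16.8), the first and the last with overlapping intervals, and above 60, with 27 GFP-only regions, 7.41% (0.91 to 24.3), 4.24% and 49.7%.

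**Figure D3:**
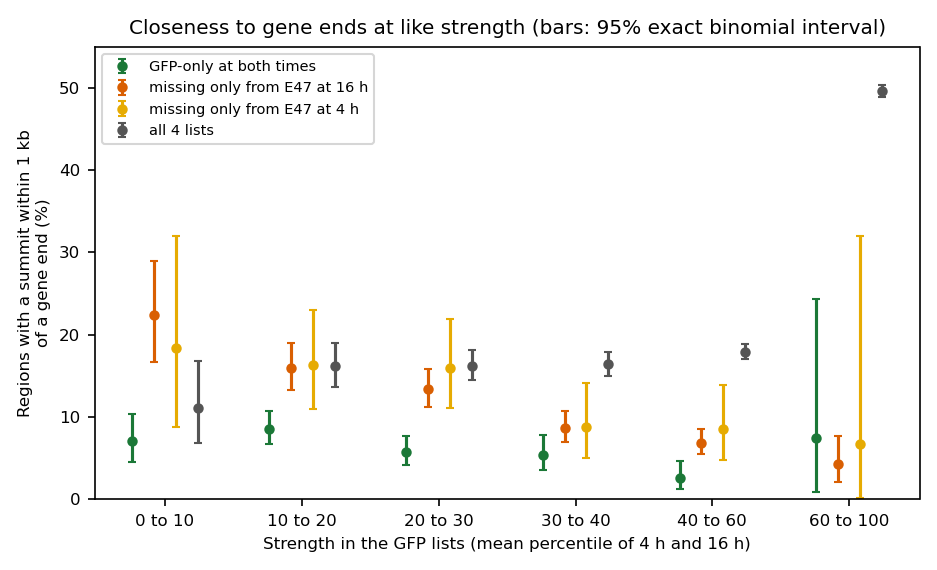
Share of regions (%) with a summit within 1 kb of a gene end (y axis) in bins of mean strength in the 2 GFP lists (x axis, percentile), for GFP-only regions (green), regions missing only from E47 at 16 h (orange) or at 4 h (yellow), and regions of all 4 lists (grey). Points are shares and bars exact 95% binomial intervals. The green points stay between 2.58% and 8.54% while the grey point rises to 49.7% above percentile 60.

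GFP-only regions were spread over many genes. With each region given to the nearest protein-coding gene within 100 kb, a label of position and not of regulation, 2054 of 14973 genes with a region had a GFP-only one, which is 13.7%, and 1642, or 11%, had an E47-only one. Of the 2054 genes, 1679 had 1 GFP-only region, 279 had 2, 72 had 3, 15 had 4, 8 had 5, and Bbs9 had the most with 6. Genes with many regions had them more often: 50.9% (48.1 to 53.8) of genes with 10 or more regions had a GFP-only one and 1.89% (1.52 to 2.34) of genes with 1 region. Both classes were found at 380 genes, which is 18.5% of the genes with a GFP-only region and 23.1% of those with an E47-only region. By chromosome, leaving out Y with 0 of 6 regions, the GFP-only share of regions ran from 3.35% (2.81 to 3.96) on chromosome 11 to 5.48% (4.60 to 6.46) on chromosome 14.

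Among the 10 genes named for the most GFP-only regions, Tox had the highest share after Alpk2, 35.7% against 41.7%. Tox encodes an HMG-box factor that the precursors of innate lymphoid cells need. Of its 14 regions, 5 were GFP-only, 1 was E47-only and 3 were in all lists. The strongest, at chr4:6963512-6963956 inside the gene, had folds of 11.3 in the GFP 4 h list and 12.2 in the GFP 16 h list. A neighbour at chr4:6959906-6960413 had folds of 8.33 and 11.7. The other three inside the gene had folds of 6.56 to 8.43 at 4 h and 7.48 to 11.9 at 16 h. Between the second and the last of the 5 GFP-only regions lay 49.0 kb with 8 regions in all, of which 4 were GFP-only, 1 was E47-only and 0 were in all lists. The nearest E47 regions were 3215 to 18858 bp away.

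At Bbs9, which encodes a protein of the ciliary BBSome complex, 6 of 24 regions were GFP-only, 10 were in all lists and 0 were E47-only. Of the 6, 5 lay inside the gene, the strongest at chr9:22835006-22835403 with folds of 8.26 and 9.76 and an E47 region 1525 bp away. The last lay 83297 bp downstream with folds of 7.68 and 8.35. Regions of all 4 lists stood between the GFP-only regions of this gene.

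**Figure D4:**
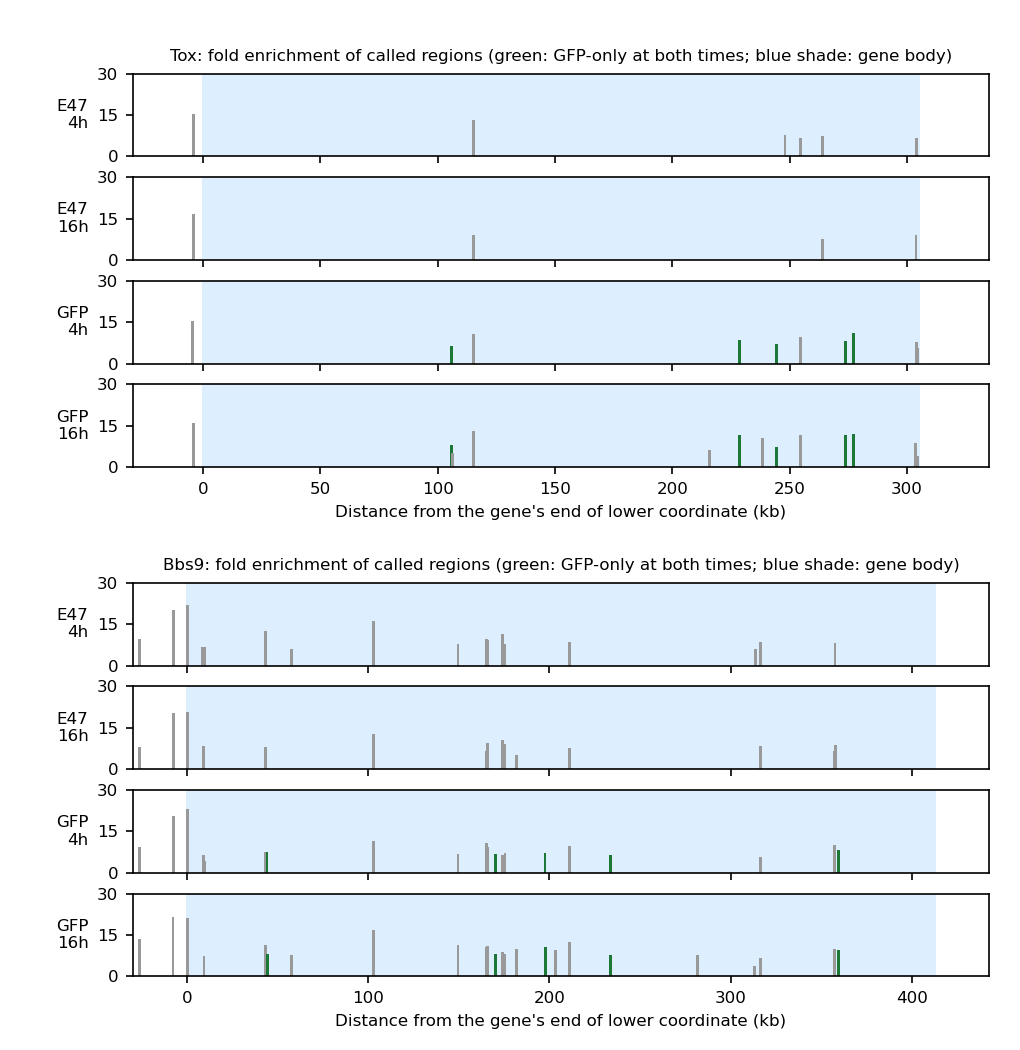
Fold enrichment (y axis) of the called regions of each list, in rows, against distance in kb from the gene's end of lower coordinate (x axis), at Tox (upper 4 rows) and Bbs9 (lower 4 rows). Green bars are GFP-only at both times, grey bars other regions, and the blue shade the gene body, and the rows reach 30 kb beyond it. Tox shows 5 green bars and Bbs9 5, its sixth lying 83297 bp downstream outside the view.

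The other genes with 5 GFP-only regions were Pde4d, Nedd4l, Elmo1, Rftn1, Nek7, Alpk2 and Plcl1. Of the 15 genes with 4, Utrn is described because its strongest GFP-only region had the highest mean strength among them. Pde4d, which encodes a phosphodiesterase that breaks down cyclic AMP, had 46 regions in all, and its strongest GFP-only region, at chr13:108693279-108693838, had folds of 11.6 and 15.4 and no E47 region within 50200 bp. Elmo1, which encodes an adaptor that activates Rac, had 48 regions, and Rftn1, which encodes a lipid raft protein, had 37. Nek7, which encodes a kinase needed by the NLRP3 inflammasome, had 26 and Alpk2, which encodes an alpha-kinase, had 12, so the share of GFP-only regions ran from 10.4% at Elmo1 to 41.7% at Alpk2. At Utrn, which encodes utrophin, the strongest GFP-only region had folds of 9.02 and 14.3.

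GFP-only regions also formed runs, in which each lay within 50 kb of the next. Another GFP-only region was within 50 kb for 27.7% (26.1 to 29.4) of them. Another region of the same class was as near for 26.6% (24.7 to 28.5) of E47-only regions, 37.8% (36.3 to 39.3) of regions missing only from E47 at 16 h and 90.0% of regions in all lists, so runs were not particular to the GFP-only class. With regions above the median of their list, the shares were 15.5% for GFP-only and 20.9% for E47-only regions. The longest run held 6 regions over 133 kb at chr8:115746415-115879462, from 39576 to 172284 bp from Maf, which encodes a bZIP factor of lymphocytes that binds sites related to those of AP-1. Of the 13 regions in that span, 3 were in all lists and 0 were E47-only. The folds of the 6 ran from 5.42 to 9.61 at 4 h and from 6.05 to 12.4 at 16 h. Of the 6, 2 were within 100 kb of Maf, which had another GFP-only region on its other side with folds of 4.60 and 5.36.

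The next run held 5 regions over 132 kb inside Nedd4l, which encodes a ubiquitin ligase, with 8 regions of all lists among 19. Of the 11 runs of 4 regions, the one with the shortest span was in Esf1, a gene of ribosome assembly, where the 4 GFP-only regions lay within 9.80 kb at chr2:140154092-140163893 and were the only regions of the span in any list. Their folds were 5.25 to 6.47 at 4 h and 6.86 to 8.95 at 16 h, and the nearest E47 region was 6237 to 15802 bp away.

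Of the gene lists examined, none had a share of GFP-only regions whose interval left out the 4.56% of all regions. Over all genes with a region, 13.7% had a GFP-only region, but most lists held genes with more regions each. Regions per gene were 3.88 over all genes and 9.74 on the ILC2 list. They were 14.7 for precursor regulators, 16.9 for Runx, ETS and Ikaros factors, and lowest for B cell genes at 2.33. Among genes that define ILC2s or that they secrete, 9 of 28 had a GFP-only region and 11 of their 263 regions were GFP-only, or 4.18% (2.11 to 7.36). Areg, which encodes amphiregulin, had 2. The first lay 3600 bp upstream at chr5:91135752-91136160, with strengths of 42.9 and 59.96 and folds of 5.68 in the GFP 4 h list and 6.86 in the GFP 16 h list, and the second lay 50377 bp downstream with folds of 6.18 and 8.16. Il2ra, which encodes the α chain of the IL-2 receptor, had 2 at 12928 and 14401 bp upstream, with folds of 6.69 and 6.27 at 4 h and 8.27 and 5.89 at 16 h. Arg1, which encodes arginase 1, had 1 at a distance of 4222 bp with folds of 5.87 and 7.17, and Bmp7 had 1 inside the gene with folds of 3.81 and 3.79. Single GFP-only regions also stood at Gata3, the lineage factor of ILC2s, 53962 bp away with folds of 5.10 and 6.86, and inside Il1rl1, which encodes the IL-33 receptor, with folds of 4.38 and 4.70. The others were at Rora, Il7r and Icos, with folds of 5.72 to 6.38 at 4 h and 6.55 to 7.14 at 16 h. Most regions of these genes, 53.6%, were in all lists.

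Regulators of innate lymphoid precursors had GFP-only regions at 7 of 15 genes, 14 of 220 regions or 6.36% (3.52 to 10.4). Tox and Maf gave 8 of the 14, and 2 were at Bcl11b, a factor of T cells and ILC2s, with folds of 5.42 and 4.42 at 4 h and 6.33 and 5.87 at 16 h. Ikzf2, which encodes Helios, had 1 with folds of 8.99 and 8.35. Runx, ETS and Ikaros factors had them at 12 of 20 genes, 17 of 338 regions or 5.03% (2.96 to 7.93). Runx1 had 3 and Etv6, which encodes an ETS repressor, had 2, the stronger of them 56168 bp downstream at chr6:134325973-134326438 with folds of 10.4 and 13.7.

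Cytokine receptor and JAK-STAT genes had GFP-only regions at 10 of 37 genes, 11 of 259 regions or 4.25% (2.14 to 7.47), among them Il27ra with folds of 8.96 and 10.4, Il10ra with 4.74 and 6.88 and Il4ra with 3.29 and 3.41. Notch receptors and their partners had the highest share among lists of over 100 regions, 11 of 145 or 7.59% (3.85 to 13.2) at 6 of 18 genes. Rbpj, the DNA-binding partner of Notch, had 3, and Notch1, Notch3 and the coactivator gene Maml3 had 2 each. The strongest of the 3 at Rbpj, inside the gene at chr5:53608578-53609295, had folds of 10.5 in the GFP 4 h list and 6.59 in the GFP 16 h list. Its strengths within these lists were 50.1 and 23.3. Genes of the T cell receptor and its signalling had 12 of 162, or 7.41% (3.89 to 12.6), at 7 of 26 genes. Fyn, which encodes a Src kinase, had 4 with folds of 5.26 to 5.82 at 4 h, and Cd28 and Prkcq had 2 each.

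Signalling and activation genes were near the background. Feedback inhibitors had GFP-only regions at 4 of 22 genes and 7 of 179 regions, 3.91% (1.59 to 7.89), with 2 each at Rgs1, Rgs2 and Tnfaip3. NF-kB, NFAT and activation genes had them at 5 of 23 genes and 6 of 213 regions, 2.82% (1.04 to 6.03). AP-1, Bach and small Maf genes had them at 4 of 19 genes and 5 of 132 regions, 3.79% (1.24 to 8.62), of which 2 were near Jun, with folds of 4.49 and 6.56 at 4 h and 5.08 and 10.02 at 16 h. Adhesion and migration genes had them at 8 of 25 genes and 10 of 215 regions, 4.65% (2.25 to 8.39), with 3 at Itga1, which encodes a collagen receptor chain. At Cxcr4, a chemokine receptor gene, the GFP-only region 80144 bp upstream had folds of 7.72 and 14.3. Cell cycle and survival genes had them at 7 of 22 genes and 7 of 191 regions, 3.66% (1.49 to 7.41). Housekeeping genes had 4 of 66, 6.06% (1.68 to 14.8), at Ywhaz and Hprt.

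E protein and Id genes had 3 GFP-only regions of 66, 4.55% (0.95 to 12.7), at 2 of 13 genes. The E protein gene Tcf12 had 2, with folds of 8.99 and 5.23 at 4 h and 11.3 and 4.58 at 16 h, the first with no E47 region within 154017 bp. Tal1, whose product pairs with E proteins, had 1 with folds of 3.77 and 3.94. Tcf3, Esr1 and Id1, which the construct and the transgene carry in part or whole, had 0 GFP-only and 0 E47-only regions, of 2, 8 and 4 regions in all.

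Genes of other blood cells, in lists of 21 to 53 regions, were not set apart from the background either. ILC3 and Th17 genes had 1 GFP-only region of 53, 1.89% (0.048 to 10.1), inside Il1r1. NK, ILC1 and cytotoxic genes had 1 of 51, 49608 bp downstream of Ifng with folds of 9.74 and 10.8. Mast cell and basophil genes had 3 of 29, 10.3% (2.19 to 27.4), all at Mitf, which encodes a factor of mast cells and melanocytes, with folds of 6.02 to 9.93 at 4 h and 7.0 to 12.4 at 16 h. Myeloid genes had 2 of 53, at Fcgr1 and Itgam, and B cell genes had 1 of 21, at Pou2af1. These genes make up lists of 11 to 15, and each interval took in the background.

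**Figure D5:**
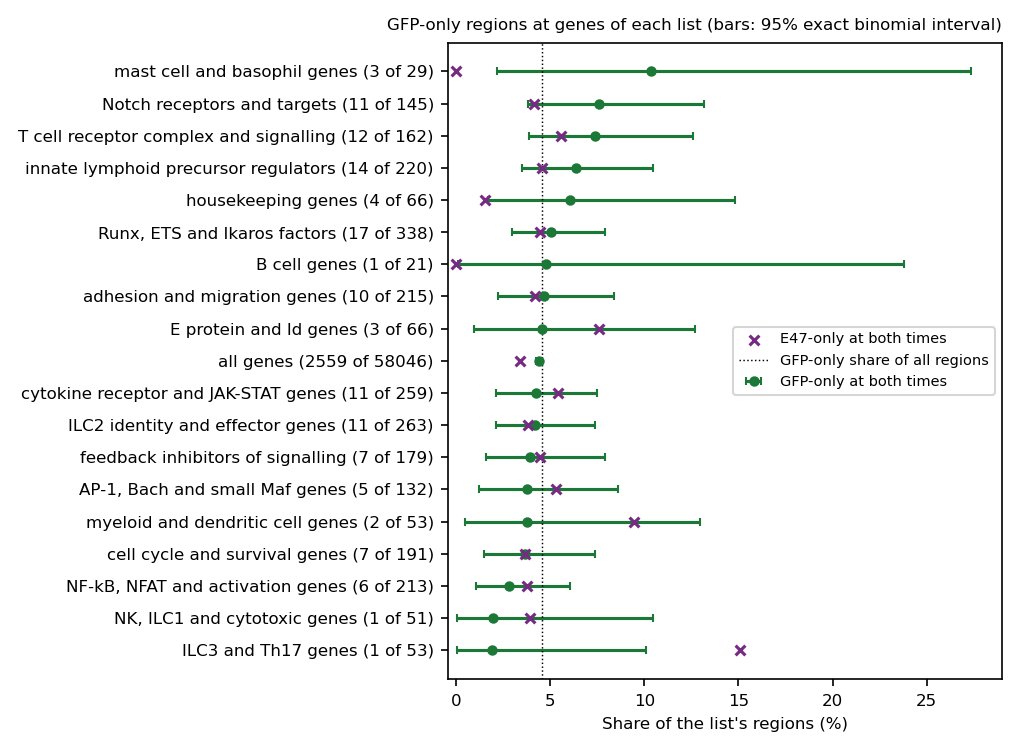
Share (%) of each list's regions that are GFP-only (green points, bars for the exact 95% binomial interval) or E47-only (purple crosses), with the GFP-only count and the number of regions after each list's name. The dotted line is the 4.56% of all regions, and every green bar of the 18 lists reaches across it.

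E47-only regions and regions of all lists lay near GFP-only regions less often than near the other classes given here. This order did not hold for neighbours of the same class within 50 kb, found for 27.7% of GFP-only and 26.6% of E47-only regions. An E47-only region lay within 50 kb of 16.0% (14.6 to 17.4) of GFP-only regions. The share was 18.9% (17.7 to 20.1) of the regions missing only from E47 at 16 h and 20.8% (20.3 to 21.3) of those in all lists. A region of all lists was within 10 kb of 47.9% (46.1 to 49.8) of GFP-only regions, 51.8% (50.2 to 53.3) of those missing only from E47 at 16 h and 56.1% (54.0 to 58.3) of E47-only regions. The nearest region of either E47 list was at a median of 6219.5 bp. It was under 1 kb away for 20.6% (19.1 to 22.2) and over 50 kb away for 7.71% (6.74 to 8.76). No miRNA hairpin of 1005 in the RefSeq table overlapped a GFP-only region, and 14 lay within 5 kb of one, among them Mir199a-2, Mir574 and Mir326. Hairpins were not counted for the other classes, so these counts cannot be called high or low.

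At the edge of the rule, 17 GFP-only regions had an E47 region under 50 bp away without overlap. Their median strengths were 17.0 and 24.8, and 41.2% of them lay within 1 kb of a gene end. Just outside the rule, 1 region of both GFP lists overlapped an E47 region by 50 bp or less, with strengths of 9.05 and 8.61 and a width of 775 bp. Few regions therefore stood within 50 bp of the limit that the rule sets. With a gap of up to 200 bp counted as shared, the class held 2529 regions in place of 2776.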

How the data were processed

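ATAC-seq was carried out on 8 samples in 4 groups of 2, grouped by title. The tools cutadapt, Bowtie2, MACS2 and DiffBind, per the submitters' processing notes, made the data on build mm10, with versions and settings not given in the sources used here. By the file names in the labels, each of the 4 deposited lists is a conservative set by irreproducible discovery rate for 1 group. Each deposited line gives a summit, a score from 540 to 1000, a fold enrichment, which is a ratio to local background, and the −log10 of p, all as the authors gave them. The lowest −log10 p was 2.00, and fold and −log10 p describe or rank regions within 1 list only. Depth per library is unknown, and list length moves with it.

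Lines were merged to regions, strength and fold being the highest among merged lines. Genes came from a RefSeq table of GRCm38.p6 with 21887 protein-coding genes, and promoters and hairpins from RefSeq tables of the same assembly, with 32851 promoters. No genome sequence was used, so motifs were searched in promoter windows and not in the other regions. The GFP-only regions, the 18 gene lists (326 genes) and the alternatives were chosen with earlier results of these data known. Genes were named by rule: those of the 12 strongest regions, the 10 genes with most regions, up to 4 per list and the 3 longest runs (ties by strength or, for runs, by shortest span), with Tcf3, Esr1 and Id1. A region among the strongest is not reported here. The remaining genes, the sequences shown, the promoter regions described singly and the loci drawn were chosen after their values had been seen. The merging, linking and distance steps were tested on simulated data. The code ran in Python 3.11.15 with scipy 1.17.1, numpy 2.4.6, pandas 2.3.3 and matplotlib 3.10.9.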

Additional observations from a re-analysis of the deposited data

How the results depend on the processing

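The count of 2776 became 2792 with an overlap of 50% of the shorter region, 2529 with a gap of 200 bp counted as shared, 2523 with lists of equal length, 3366 by summits within 150 bp, and 1143 with regions above the median of their list, of which 51 overlap one of the 2776. By construction, that last setting counts control regions whose E47 counterpart is weak. The share within 1 kb of a gene end, 6.20%, was 4.78% with the gap, 5.19% at equal length, 11.97% by summits, 10.34% at 2 kb, and 4.45% for transcription starts, an alternative chosen after seeing the data. The share inside genes was 51.25% by summits. The share with another GFP-only region within 50 kb, 27.7%, was 25.58% with the gap, 15.49% above the median, 32.23% by summits and 15.02% at 20 kb. The share above both medians was 3.33% at equal length and 8.44% by summits. The share of genes with both classes, 18.5%, was 16.24% with the gap, 22.73% at equal length, 11.03% above the median, 26.9% by summits and 15.54% with genes within 5 kb, where 5 ILC2 genes in place of 9 had a GFP-only region. For the other moved values the cause was not tested. In all, 35 values moved and 52 stayed within their interval or within 1.5 times. The AP-1 share of GFP-only promoter windows, 16.5%, was 8.94% by summits and 13.51% to 23.88% under the other ways to define regions, which were applied to it after seeing the data, and that of E47-only windows was 4.55% to 7.84%. GFP-only regions had a lower share near gene ends than E47-only regions, regions missing only from E47 at 16 h and regions of all lists under all 6 other ways to define regions, comparisons added after seeing the data. These 6 are not separate checks. With the overlap of 50%, 99.4% of regions overlapped one of the 2776, and with autosomes only 100% did, while above the median it was 4.46%. With regions above the median the shares were 6.65%, 8.30%, 13.3% and 51.8%. No paired analysis was possible because each group has 1 list, and no replicate could be left out.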
